A study of Drosophila melanogaster with 2 samples.

Results

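The genes described here are 60 long noncoding RNA genes of Drosophila melanogaster with a peak of the tagged protein BuGZ near their start. They were chosen by their symbol (starting with lncRNA: or asRNA:) and by a reproducible peak summit within 250 bp of 1 of their transcription start sites (TSS). The annotation holds 2448 genes with such symbols on the main chromosomes, so the 60 make up 2.45% of them (95% Wilson interval 1.91 to 3.14), whereas 9.43% of all 18277 genes met the same criterion. Because the peak list picked the 60, their having a peak and the height of that peak are descriptions and not findings. Of the 60 genes, 34 stood alone, meaning that no protein-coding TSS lay within 250 bp of the summit, and 26 shared their peak with a protein-coding TSS that near. The prefix lncRNA: is left out of names below, and asRNA: is kept.

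The peaks come from chromatin immunoprecipitation with sequencing (ChIP-seq) on whole embryos, 0 to 16 h old and of both sexes pooled. All animals came from 1 transgenic line, CG17912-GFP, that stably expresses BuGZ (CG17912) with green fluorescent protein at its C terminus. The series has 1 group of 2 libraries, labelled biological replicates 1 and 2, and no condition is set against another. The descriptions of both libraries call them input controls, whereas the antibody label and the way the lists were made treat them as immunoprecipitates, which is how they are used here. What drives the fusion gene, and how many embryos were pooled, is not given in the sources used here. Whole embryos mix all cell types, so a low signal in all cells and a high signal in few cells cannot be told apart.

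BuGZ has zinc fingers, associates with microtubules and with Bub3 of the spindle checkpoint, and is best known for helping chromosomes align in mitosis. Long noncoding RNAs are transcripts without a long reading frame, and some act on chromatin, serve as hosts from which microRNAs are cut, or have no known role. Many start close to a protein-coding gene, either on the opposite strand in a divergent promoter or inside the gene as an antisense RNA. ChIP-seq carries no strand, so a peak over 2 neighbouring starts cannot be assigned to either of them.

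The windows below are shown because they carry the strongest stand-alone peak, the peaks of 2 microRNA hosts, the stand-alone peak farthest from a coding start, and 3 peaks shared with coding genes. Each is 201 bases, 100 on either side of the summit, from the RefSeq sequence of the Release 6 assembly (dm6 coordinates), on the strand of the noncoding gene. Capitals mark matches on either strand to any of 7 short motifs that are spelled out further on. No base of these windows lies in an exon of a protein-coding gene.
CR31840, chr2L:14023979-14024179, minus strand: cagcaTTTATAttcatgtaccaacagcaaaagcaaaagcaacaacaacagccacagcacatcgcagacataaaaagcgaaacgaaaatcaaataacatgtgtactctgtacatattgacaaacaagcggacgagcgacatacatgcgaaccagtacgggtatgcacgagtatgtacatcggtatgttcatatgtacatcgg
CR31044, chr3R:29214348-29214548, plus strand: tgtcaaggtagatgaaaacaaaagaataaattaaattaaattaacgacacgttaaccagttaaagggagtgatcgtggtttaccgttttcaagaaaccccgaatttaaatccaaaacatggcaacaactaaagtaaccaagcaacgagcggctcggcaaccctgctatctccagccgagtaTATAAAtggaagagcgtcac
CR43334, chr3L:628343-628543, plus strand: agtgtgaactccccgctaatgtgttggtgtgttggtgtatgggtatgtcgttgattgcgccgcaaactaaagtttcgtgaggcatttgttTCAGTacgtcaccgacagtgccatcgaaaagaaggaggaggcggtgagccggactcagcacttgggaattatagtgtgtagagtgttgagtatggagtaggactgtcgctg
CR43431, chr3L:12653237-12653437, minus strand: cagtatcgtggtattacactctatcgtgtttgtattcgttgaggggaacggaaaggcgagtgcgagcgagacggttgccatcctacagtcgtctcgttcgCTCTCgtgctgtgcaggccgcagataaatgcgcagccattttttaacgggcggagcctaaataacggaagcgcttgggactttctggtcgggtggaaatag
enrr, chrX:523358-523558, minus strand: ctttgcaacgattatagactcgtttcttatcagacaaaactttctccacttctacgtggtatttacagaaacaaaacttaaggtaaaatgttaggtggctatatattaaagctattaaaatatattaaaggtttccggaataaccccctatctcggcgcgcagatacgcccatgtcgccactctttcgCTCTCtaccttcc
CR45939, chr3L:18801435-18801635, minus strand: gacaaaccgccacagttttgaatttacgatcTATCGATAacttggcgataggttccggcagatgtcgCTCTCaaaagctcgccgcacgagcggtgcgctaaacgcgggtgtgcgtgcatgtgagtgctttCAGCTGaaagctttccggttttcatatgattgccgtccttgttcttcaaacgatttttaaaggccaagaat
CR44149, chr2L:9568599-9568799, minus strand: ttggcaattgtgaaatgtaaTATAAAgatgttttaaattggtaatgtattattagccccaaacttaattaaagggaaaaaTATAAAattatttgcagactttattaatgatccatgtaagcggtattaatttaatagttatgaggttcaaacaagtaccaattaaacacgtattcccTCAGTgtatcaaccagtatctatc

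CR31840 on 2L, a single-exon gene of 378 bp, carried the strongest peak of the 60. Its signal value was 1100 in the reproducible list, the second highest of 2413 peaks, and its region ranked 3 in replicate 1 (signal value 653) and 3 in replicate 2 (signal value 456). The summit at 14024079 lay 20 bp downstream of the annotated start and 2922 bp from the nearest protein-coding start, that of hll. Signal values are the authors' own, on a scale that differs between lists, so ranks are what can be set side by side. The weak peak of CR45352, with its summit at 14022043 on the same arm, was the only other one within 5000 bp of another member's summit.

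CR31044 on 3R, the host of mir-279 and mir-996, carried the second strongest stand-alone peak. Both microRNAs are known to limit the formation of certain sensory neurons. The signal value was 550 (rank 28), with rank 32 in replicate 1 and rank 38 in replicate 2. The summit lay 114 bp upstream of the start. In the window above, TATAAA begins 33 bases upstream of that start on the sense strand. The start itself, just beyond the window, falls on the A of TCAGT.

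CR46036 on 3R, also stand-alone, lies in an intron of osa, a gene for a chromatin remodelling subunit. Its signal value was 289 (rank 180), but the replicates placed it apart, at rank 497 in replicate 1 and rank 74 in replicate 2. CR43431 on 3L followed with 242 (rank 297), rank 200 in replicate 1 and rank 743 in replicate 2. No stand-alone summit was farther from a coding start than this one, 40302 bp from that of mirr, an Iroquois homeobox gene. CR45588 on 3R had a signal value of 161 (rank 934 in replicate 1, 715 in replicate 2) and lay 32903 bp from corto, a gene for a chromatin protein.

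**Figure D1:**
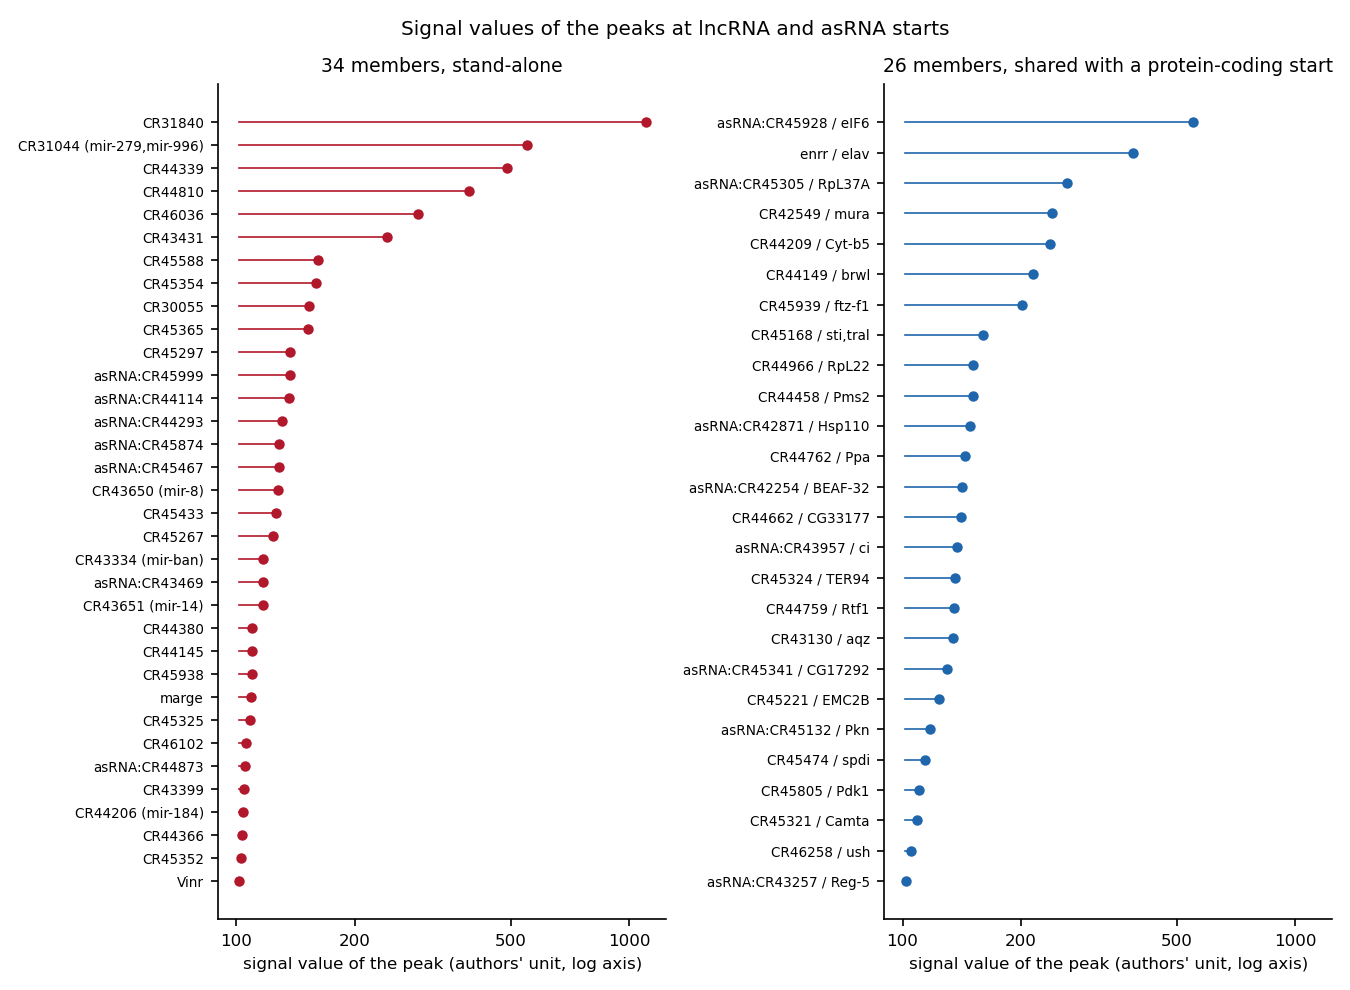
Signal value of the peak at each of the 60 genes (1 point per gene, log axis, authors' unit), with the 34 stand-alone genes on the left and the 26 genes that share their peak with the named protein-coding gene on the right. Most points lie close to the lower end of the list near 101, and the 8 genes from CR31840 (1100) to RpL37A's partner asRNA:CR45305 (262) have ranks of 2 to 241 among the 2413 peaks.

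The 60 genes included 5 microRNA hosts, and all 5 stood alone. They made up 14.7% of the 34 stand-alone genes (95% Wilson interval 6.45 to 30.1), 0 of the 26 shared genes (upper Wilson limit 12.9%) and 1.34% of the other lncRNA and asRNA genes (32 of 2388). Read from the side of the hosts, 5 of 37 had a peak (13.5%, interval 5.91 to 28.0), against 55 of 2411 lncRNA and asRNA genes that host no microRNA (2.28%, interval 1.76 to 2.96). The shares of all genes (9.43%) and of protein-coding genes (11.6%) both lie inside the interval of the hosts. Hosting a microRNA was not used to choose the genes, but this comparison was not among those planned beforehand. The microRNA gene itself lies inside the host, and the peaks sat at an annotated start of the host's transcripts. For CR43650 that start, at 16830689, lay inside the gene, which begins at 16829095. For CR44206, on the minus strand, it was at 13337335 in a gene that begins at 13344808. With only the 5' end of each gene counted, neither of these peaks would belong to its host.

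For the hosts shown above, the mature microRNAs named RA are given with their seeds (bases 2 to 8, in capitals), which define their targets. Those named RB, from the same microRNA genes, are left out. The names are those of RefSeq, on the plus strand of dm6.
mir-279-RA, chr3R:29215651-29215672: tGACTAGAtccacactcattaa
mir-996-RA, chr3R:29217244-29217265: tGACTAGAtttcatgctcgtct
mir-ban-RA, chr3L:642259-642281: tGAGATCAttttgaaagctgatt
The first and second share the seed GACTAGA and come from 1 host, and the third has the seed GAGATCA. CR43334, the host of mir-ban (bantam), which is known to promote growth and block cell death, had a signal value of 117 (rank 1686). Its region ranked 2241 in replicate 1 and 2368 in replicate 2, close together and far below those of CR31044. The summit lay 8 bp downstream of the start, 20112 bp from the nearest coding start, and the start falls on the A of the TCAGT in the window printed for this gene.

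The other hosts, all on chromosome arm 2R, had weak peaks whose ranks differed between replicates. CR43650, the host of mir-8, which is known to act in growth control, had a signal value of 128, with rank 717 in replicate 1 and rank 3098 in replicate 2. CR43651, the host of mir-14, known from cell death and fat metabolism, had a signal value of 117, with ranks 3172 and 1106 in replicates 1 and 2. CR44206, the host of mir-184, known from the female germline, had a signal value of 104, with rank 12048 in replicate 1 and rank 2003 in replicate 2. Only the region of CR31044 was thus far up both lists, while those 3 each fell outside the 2413 highest regions of 1 replicate. Among all 37 hosts, 23 had some candidate region of the pooled list at a start (62.2%), beside 20.5% of all lncRNA and asRNA genes and 40.7% of all genes.

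2 further strong stand-alone peaks lay on 2R near developmental genes. CR44339 had a signal value of 489 (rank 43), with rank 52 in replicate 1 and rank 36 in replicate 2. Its summit lay 209 bp upstream of its own start, which the peak interval did not reach. The nearest coding start, that of Psc, a Polycomb group gene, lay 4164 bp from the summit. CR44810 had a signal value of 391 (rank 86), with rank 74 in replicate 1 and rank 193 in replicate 2. Its summit lay 4541 bp from slbo, a gene for a transcription factor of migrating border cells. The noncoding start used lay 169 bp downstream of the summit, again outside the peak interval. That start, at 24329730, lies inside CR44810, which begins at 24325027 on the plus strand. With only 5' ends counted, the peak would not belong to CR44810. Both regions were thus high in each replicate.

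The remaining stand-alone genes in the upper 20 had signal values of 124 to 160. CR45354 (160) and CR45365 (152) on 2L lay 1473 and 10333 bp from a coding start. CR30055 (153) lay in an intron of Sin3A, a corepressor gene, with its summit 459 bp from the nearest start of that gene. The start used for CR30055, at 12589767, lies inside the noncoding gene, which begins at 12589239 on the plus strand. With only 5' ends counted, the peak would not belong to CR30055. CR45297 (137), CR45433 (126) and CR45267 (124) lay outside coding genes, at 1086, 8169 and 5224 bp from a coding start. Of these 6 genes, CR45297 was placed most differently by the replicates, at rank 740 in replicate 1 and rank 5217 in replicate 2.

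7 antisense RNA genes stood alone, with signal values between 105 and 136. asRNA:CR45999 (136) overlaps CG9855, and asRNA:CR44114 (136) has its summit in an intron of sau, which encodes a Golgi protein. asRNA:CR44293 (131) has its summit in an intron of PCB, the gene of pyruvate carboxylase, and asRNA:CR45467 (129) in an intron of Sec24AB, which encodes a coat subunit of transport vesicles. asRNA:CR45874 (129) was the only stand-alone gene with its summit in an exon of a coding gene, the ribosomal protein gene RpS9. asRNA:CR43469 (117) overlaps Balat and asRNA:CR44873 (105) has its summit in an intron of Ndf, which encodes a nucleosome-destabilising factor. asRNA:CR43469 ranked 7494 in replicate 1 and 736 in replicate 2, and asRNA:CR45999 the other way, 871 in replicate 1 and 3939 in replicate 2.

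Stand-alone summits were not simply just beyond the distance that defines sharing. The nearest coding start lay a median of 2896 bp away (range 335 to 40302). It lay at 250 to 500 bp for 3 genes, 500 to 1000 bp for 2, 1000 to 5000 bp for 19 and beyond 5000 bp for 10. Measured from the annotated starts of these genes instead of the summit, the nearest coding start was 87 to 40549 bp away. Of the 34 summits, 23 lay outside any protein-coding gene, 10 in an intron and 1 in an exon of one, against 15, 4 and 7 of the 26 shared summits.

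The 26 shared genes fell into 3 arrangements with their nearest coding start. In 18 (69.2%) the noncoding and the coding gene were divergent, in 4 they overlapped head to head on opposite strands, and in 4 they ran on the same strand. The 2 starts lay a median of 110.5 bp apart (range 0 to 397). The coding start was nearer to the summit in 11 of 26 pairs, and in 11 of the 18 divergent pairs the summit lay between the starts.

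The divergent pairs were led by asRNA:CR45928 with eIF6, a factor of ribosome maturation, whose starts lie 29 bp apart. Its signal value was 548 (rank 30), with rank 28 in replicate 1 and rank 50 in replicate 2, and the same summit lies in an intron of ytr, which asRNA:CR45928 overlaps. CR44209 with Cyt-b5, an electron carrier, had 238 (ranks 297 and 527 in replicates 1 and 2), and CR44149 with brwl had 214 (ranks 550 and 313). Both replicates placed each of these 3 regions among their own 2413 highest. CR45168 shared its peak (signal value 160) with tral, a divergent RNA granule gene, and with sti, a cytokinesis kinase gene on its own strand that it overlaps. CR44966 shared its peak with the ribosomal protein gene RpL22 and CR44458 with Pms2, a mismatch repair gene (signal value 151 each).

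The divergent antisense RNA genes had lower signals after asRNA:CR45928. asRNA:CR42871 with the chaperone gene Hsp110 had a signal value of 148, with rank 1024 in replicate 1 and rank 651 in replicate 2. asRNA:CR42254 with the insulator gene BEAF-32 had 141, and asRNA:CR43957 with ci, the transcription factor of Hedgehog signalling, had 138. asRNA:CR43257 with Reg-5 had 102, the lowest of the shared genes, with rank 10658 in replicate 1 and rank 1082 in replicate 2. The other divergent partners were Ppa, CG33177, Rtf1, aqz, EMC2B, spdi, Pdk1 and Camta, with signal values of 109 to 144. CR43130, the partner of aqz, was the only 1 of the 60 genes with 2 reproducible peaks.

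Among the 4 overlapping pairs, asRNA:CR45305 with the ribosomal protein gene RpL37A had a signal value of 262 (rank 241), with rank 220 in replicate 1 and rank 417 in replicate 2. Its summit lay 1 bp from the RpL37A start and 110 bp from its own. CR45324 with TER94, an ATPase of protein degradation, had 136, asRNA:CR45341 with CG17292 had 130 and asRNA:CR45132 with the kinase gene Pkn had 117. asRNA:CR45341 was placed at rank 6577 in replicate 1 and at rank 436 in replicate 2.

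On the same strand, the noncoding start was 0 to 19 bp from the coding start, so the annotation gives nearly the same promoter to both. enrr with elav, the gene of a neuronal RNA-binding protein, had a signal value of 386 (rank 89), with rank 197 in replicate 1 and rank 44 in replicate 2. The summit lay 232 bp upstream of the start that both share. CR42549 with mura had 240 (ranks 281 and 515 in replicates 1 and 2), and CR45939 with ftz-f1, a nuclear receptor gene, had 202 (ranks 652 and 416). CR46258 with ush, a cofactor of GATA factors, had 105.

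**Figure D2:**
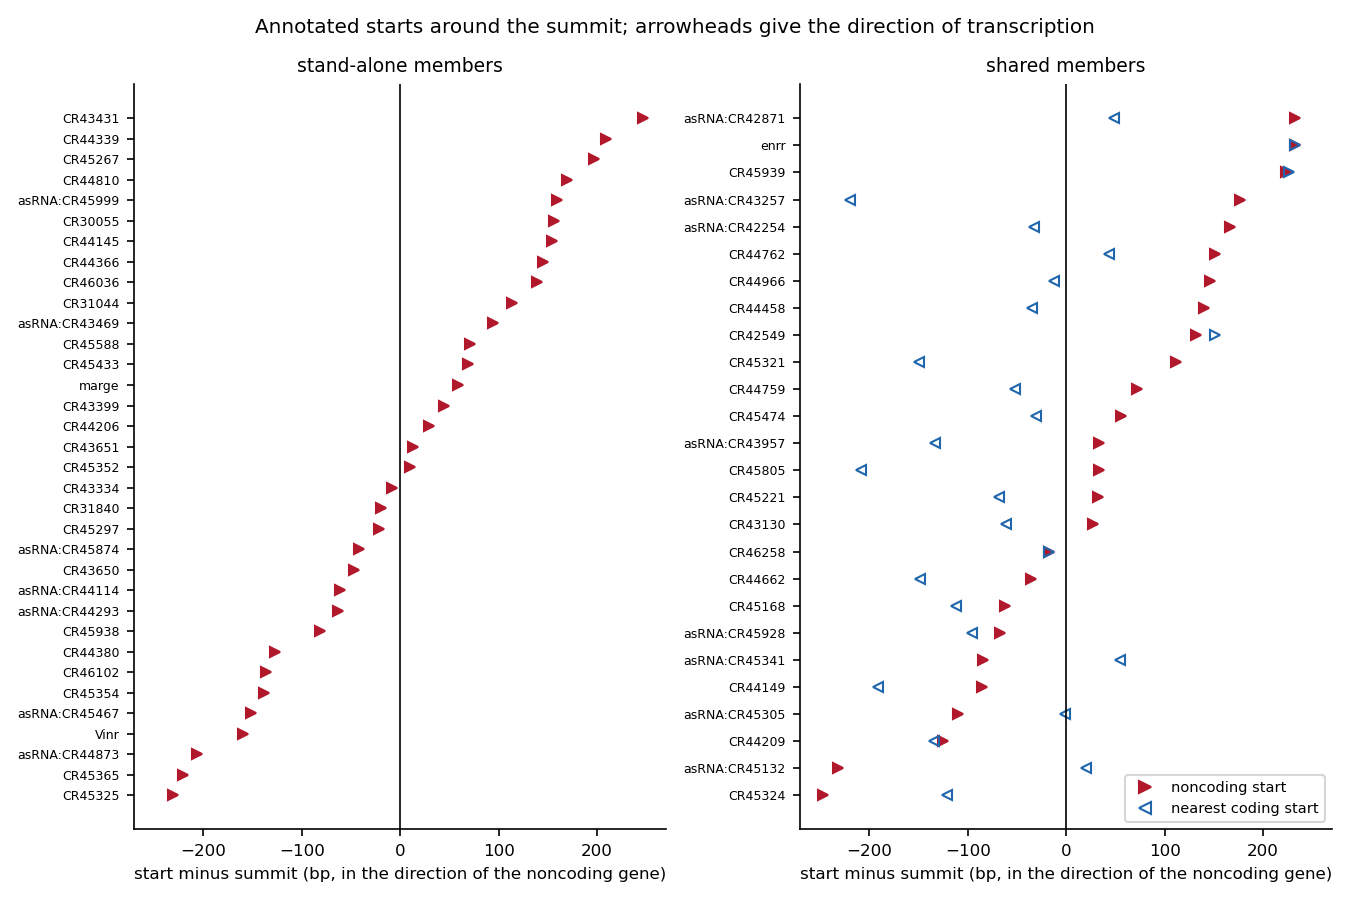
Position of the annotated noncoding start (filled red arrowhead) and, for shared genes, of the nearest coding start (open blue arrowhead) relative to the summit at 0, in bp along the direction of the noncoding gene; arrowheads point in the direction of transcription. In 18 of 34 stand-alone and 16 of 26 shared genes the start lies to the right of the summit, and 18 of the open arrowheads belong to divergent pairs.

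At stand-alone genes, summits lay upstream of the start less often than at coding promoters. They did so in 18 of 34 stand-alone genes (52.9%) and 16 of 26 shared genes (61.5%), against 964 of 1276 promoter peaks at protein-coding starts only (75.5%). The difference between stand-alone genes and coding-only peaks was -22.6 percentage points (95% Newcombe interval -39.0 to -6.81). For shared genes it was -14.0 points (interval -33.1 to 2.21), and stand-alone and shared genes differed by -8.60 points (interval -31.4 to 16.0). Measured from the coding start, 21 of the 26 shared summits were upstream (80.8%). Whether the annotated noncoding starts are as exact as the coding ones was not tested.

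Within the reproducible list the stand-alone genes had lower signals than the shared ones, but the replicates did not both order them so. Signal values had a median of 127 (interquartile range 109 to 153) for stand-alone genes and 141 (125 to 191) for shared genes, beside 135 for coding-only promoter peaks and 134 for the whole list. The first 1206 ranks held 13 of 34 stand-alone genes, 18 of 26 shared genes and 50.5% of the coding-only peaks. The first 241 ranks held 5 stand-alone genes, 3 shared genes and 9.17% of the coding-only peaks. For the described genes, the median rank in replicate 2 was 1676 for the 33 stand-alone genes with a region there and 999.5 for the shared genes. In replicate 1 the medians were nearly equal, 1309.5 and 1325. Genes chosen anew from replicate 2 alone had median percentile ranks of 41.4 (stand-alone) and 52.8 (shared). Those chosen anew from replicate 1 alone had 48.9 and 45.6, the other way round.

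The replicates differed in how highly they placed the regions. A region within 200 bp of the summit was present in both replicate lists for 59 of 60 genes, and CR45352 had none in replicate 2 (rank 1192 in replicate 1). Each list runs to 30000 regions and so reaches background, so presence in both says little about these genes. Both replicates placed the region among their own 2413 highest for 16 of 34 stand-alone genes (47.1%) and 18 of 26 shared genes (69.2%), beside 56.9% of coding-only peaks. The difference between stand-alone and shared genes was -22.2 percentage points (95% Newcombe interval -43.3 to 2.97). A further 9 stand-alone and 2 shared genes were that high in replicate 1 only, 7 stand-alone and 6 shared genes in replicate 2 only, and 2 stand-alone genes in neither.

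**Figure D3:**
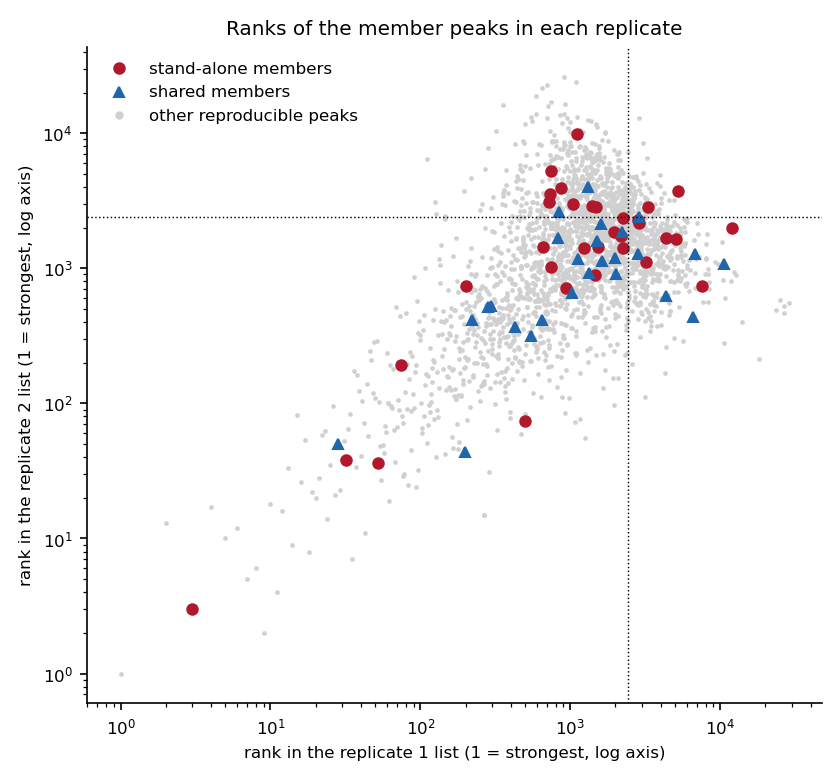
Rank of the strongest region within 200 bp of each summit in the replicate 1 list (x axis) and the replicate 2 list (y axis), both on log axes with 1 as the strongest; dotted lines mark rank 2413. CR31840 sits at rank 3 in both, and of the drawn genes 16 stand-alone and 18 shared ones fall below and to the left of both dotted lines.

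Choosing genes from each replicate alone gave a similar number of genes but not all the same ones. The 2413 highest regions of replicate 1 lay at 60 lncRNA or asRNA genes (2.45%, beside 9.08% of all genes), and those of replicate 2 at 62 (2.53%, beside 9.29% of all genes). Of the 60 genes described here, 43 were among those of replicate 1 and 46 among those of replicate 2, 31 were among both and 2 among neither. Any candidate region of the pooled list, which runs to 30000 regions and so reaches background, lay at 503 of the 2448 genes (20.5%), beside 47.0% of protein-coding genes and 40.7% of all genes. The share of lncRNA and asRNA genes was below that of all genes in each of these lists.

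A nearby coding start was more frequent among the 60 genes than among lncRNA and asRNA genes at large. A protein-coding TSS lay within 250 bp of a noncoding TSS in 24 of 60 genes (40%, 95% Wilson interval 28.6 to 52.6) and in 11.5% of the 2448. Of the 282 genes with a coding start that near, 24 had a peak (8.51%, 95% Wilson interval 5.79 to 12.4), close to the 9.43% of all genes. Of the 2166 without one, 36 had a peak (1.66%, interval 1.20 to 2.29), and of the 1719 with none within 1000 bp, 30 had one (1.75%). The share over all protein-coding genes was 11.6% (1621 of 13968).

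**Figure D4:**
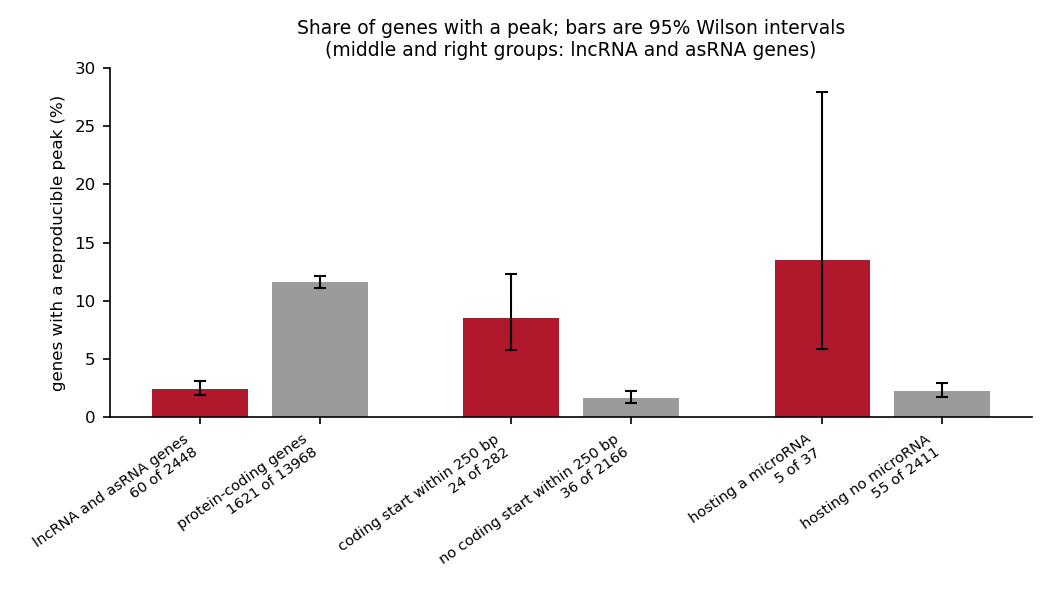
Percentage of genes with a reproducible summit within 250 bp of a start, with 95% Wilson intervals as bars, for lncRNA and asRNA genes against protein-coding genes (2.45% and 11.6%), for lncRNA and asRNA genes with against without a coding start within 250 bp (8.51% and 1.66%), and for microRNA hosts against other lncRNA and asRNA genes (13.5% and 2.28%). The interval of the 37 hosts is the widest, from 5.91 to 28.0%.

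By kind, 45 of 1945 lncRNA genes (2.31%) and 15 of 503 asRNA genes (2.98%) had a peak, with overlapping intervals (1.73 to 3.08 and 1.82 to 4.86). Of these, 27 lncRNA genes and 7 asRNA genes stood alone. Genes with a peak had a median length of 1051.5 bp, beside 715 bp for the other lncRNA and asRNA genes, and 53.3% had a single exon, beside 59.9%. They overlapped a protein-coding gene on the opposite strand in 40% of cases, beside 35.6% for the others.

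Chromosome arm 2R held 24 of the 60 genes. That is 6.09% of its 394 lncRNA and asRNA genes (95% Wilson interval 4.13 to 8.90), against 36 of 2054 elsewhere (1.75%, interval 1.27 to 2.42). Protein-coding genes showed no such excess on that arm, with 11.8% having a peak, beside 11.6% on all arms. With each replicate alone, 2R had the highest count of any arm, 18 of 60 genes in replicate 1 and 25 of 62 in replicate 2. Noncoding genes with a coding start within 250 bp had a peak in 8 of 65 cases on 2R (12.3%) and 16 of 217 elsewhere (7.37%), and those without in 16 of 329 (4.86%) and 20 of 1837 (1.09%). The other genes were spread over 2L (12), 3L (10), 3R (8), X (5) and 4 (1).

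Motifs of Drosophila promoters were counted within 100 bp of the summits, on both strands. There were 7, and none contains another. TATCGATA, the DNA replication-related element, occurred at 2.94% of stand-alone summits, 15.4% of shared summits and 9.48% of coding-only promoter peaks, beside 1.11% of windows around all lncRNA and asRNA starts and 5.43% around all starts. GGTCACACT, the core of motif 1, occurred at 0, 7.69 and 6.27% of the same 3 sets, beside 0.499% and 3.69% of the windows around starts. CAGCTG, an E-box, occurred at 5.88% of stand-alone, 7.69% of shared and 18.8% of coding-only summits, beside 7.83% and 12.3%. The difference between stand-alone and coding-only peaks in CAGCTG was -12.9 percentage points, with a 95% Newcombe interval of -17.7 to 0.443.

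GAGAG, the letters read by GAGA factor, was found at 35.3% of stand-alone, 38.5% of shared and 25.7% of coding-only summits, beside 22.1% of windows at lncRNA and asRNA starts and 24.3% at all starts. TATAAA, the TATA box, was found at 17.6, 30.8 and 26.8% of the 3 sets (24.9% and 26.2% at starts), and TCAGT, part of the initiator, at 29.4, 42.3 and 32.0% (34.5% and 42.2% at starts). CAGGTAG, the site of Zelda, was at 0 of the 34 stand-alone and 0 of the 26 shared summits, and at 0.549% of the coding-only ones (1.15% and 1.03% at starts). For each of the 7 motifs the Newcombe intervals of the differences between stand-alone and shared, stand-alone and coding-only, and shared and coding-only summits included 0 at this window of 100 bp. With 34 and 26 windows these intervals are wide, and the outcome depended on the window. Within 150 bp, CAGCTG was found at 8.82% of stand-alone and 7.69% of shared summits, against 25% of coding-only ones, with intervals of -22.5 to -1.85 and -23.4 to -0.699 percentage points for the differences from coding-only peaks. Within 50 bp, GAGAG was at 26.5% of stand-alone against 13.6% of coding-only summits (interval 0.799 to 29.6). TATAAA within 50 bp was at 5.88% of stand-alone against 26.9% of shared summits (interval -40.7 to -2.35), and the shared share lay above the 12.4% of coding-only summits (interval 1.18 to 33.8). TATCGATA within 150 bp was at 2.94% of stand-alone against 19.2% of shared summits (interval -35.1 to -0.215). The median GC content was 45.8% at stand-alone, 42.3% at shared and 40.8% at coding-only summits, beside 41.8% around lncRNA and asRNA starts.

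**Figure D5:**
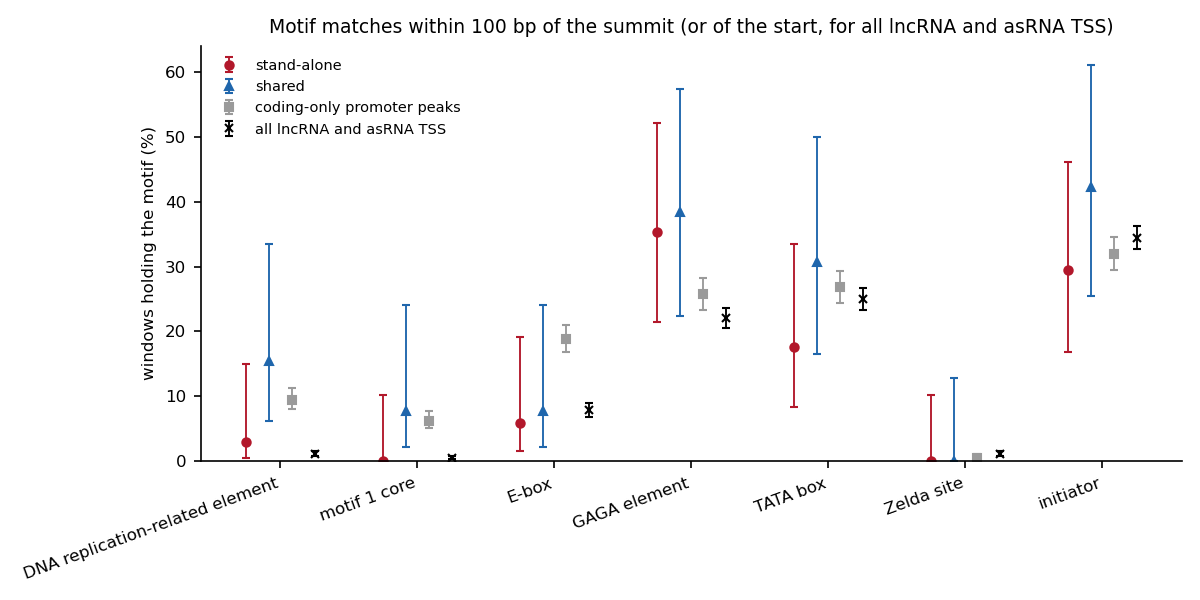
Percentage of windows that hold each of the 7 motifs within 100 bp of the summit (stand-alone, shared and coding-only promoter peaks) or of the start (all lncRNA and asRNA TSS), with 95% Wilson intervals. Intervals of the stand-alone and shared genes overlap for each motif, as at the E-box with 5.88 and 7.69%, beside 18.8% of coding-only peaks.

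Placed on the annotated start itself, core promoter letters were rare at noncoding and coding starts alike. These counts were added after the windows had been read. TATAAA on the sense strand began 36 to 24 bases upstream of the start in 2 of 34 stand-alone genes (5.88%, CR31044 and marge). It did so in 1 of 26 shared genes (asRNA:CR42871), beside 2.42% of all lncRNA and asRNA starts and 5.89% of protein-coding starts. The A of TCAGT fell on the start in 3 stand-alone genes (CR31044, CR43334 and CR44366) and no shared gene, beside 1.46% of all lncRNA and asRNA starts. CR31044 was thus the only 1 of the 60 genes with both.

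The criterion of 250 bp and the length of the list both cut through close values. The summits nearest inside the distance belonged to CR43431 and CR45324 (247 bp each), followed by enrr, asRNA:CR42871 and asRNA:CR45132 (232 bp each). Just outside it lay those of asRNA:CR45396 and CR45593 (252 bp each) and asRNA:CR44429 (253 bp). The lowest signal values inside the list were 102.7 for CR45352, 102.0 for asRNA:CR43257 and 101.3 for Vinr. Just below the list, pooled candidates lay at asRNA:CR45804 (100.1, rank 2492), yar (99.8, rank 2514) and asRNA:CR43889 (99.7, rank 2523).

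Well-studied long noncoding RNAs were not among the 60 genes. Of 13 listed, 11 were found in the annotation under these names, and 0 of the 11 had a reproducible peak, which allows a share of up to 25.9% by the Wilson interval. With 2.45% of all lncRNA and asRNA genes having a peak, a count of 0 among 11 does not set these RNAs apart. Lower candidates of the pooled list lay at 4 of the 11, beside 20.5% of lncRNA and asRNA genes and 40.7% of all genes. They were at yar (rank 2514), flam, a source of transposon-silencing RNAs (rank 7184), and roX1 and roX2, the dosage compensation RNAs (ranks 8542 and 15214). No pooled candidate lay at a start of Hsromega, bxd, iab8, let7C, cherub, noe or sphinx.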

How the data were processed

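Chromatin immunoprecipitation libraries of 1 group with 2 replicates were analysed from 4 deposited interval lists on dm6. The read-me texts deposited with them say that the authors called candidates on each replicate's alignment against a control and on both alignments pooled, and kept reproducible peaks by irreproducible discovery rate. Which aligner, caller and threshold they used is not given in the sources used here. The deposited signal value has no stated scale, so signal values were compared only within 1 list, and lists were set side by side by rank. The deposited summit offset in bp gave the summit (other columns were not used). The reproducible list equals the 2413 highest pooled regions. Depth is unknown, and intervals cover counting error over genes or peaks only.

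Starts came from the Ensembl BDGP6 annotation of the 7 main chromosomes, without transposable elements. All 60 genes matched RefSeq by symbol and bounds. A gene with several peaks took its strongest, and it counted as shared if any of its summits had a protein-coding start within 250 bp. Replicate ranks are those of the strongest region with a summit within 200 bp. Promoter peaks at protein-coding starts only served for comparison. Genes named were the 20 stand-alone and 10 shared ones of highest signal, all asRNA genes, a list of studied RNAs, those nearest to both limits and those lacking a region in a replicate. The other genes were named after their values were seen. The genes and lists were chosen with earlier results of these data known. Intervals are 95% Wilson for shares and Newcombe for differences. With 1 group no test between samples exists, and no p-value is given. Alternatives were other distances, interval overlap, the list above its median rank, each replicate alone, 5' ends only, other partner definitions and other sequence windows. Python 3.11.15, pandas 2.3.3 and numpy 2.4.6 were used, and the selection was tested on simulated data.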

Additional observations from a re-analysis of the deposited data

How the results depend on the processing

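The number of genes follows the distance allowed between summit and start. With 100 bp there were 28 genes (1.14% of lncRNA and asRNA genes), 16 of them stand-alone. With 500 bp there were 105 (4.29%), 61 stand-alone, and with 1000 bp there were 182 (7.43%), 98 stand-alone. Requiring the interval to overlap a start gave 41 genes (1.67%), 23 of them stand-alone. Strong peaks whose interval did not reach the noncoding start included those of CR44339, CR44810, CR46036, CR43431 and enrr. With only the 5' end of each gene as its start there were 54 genes (2.21%), 34 of them stand-alone. These 34 are not the same set, as CR44810, CR30055, CR43650 and CR44206 were lost. Coding genes were reduced to their 5' end too, which changes which genes count as shared. Peaks above the list's median rank alone left 31 genes (1.27%), of which 13 (41.9%) stood alone. Without replicate 1 there were 62 genes (34 stand-alone) and without replicate 2 there were 60 (35 stand-alone), with stand-alone shares of 54.8 to 58.3%. The order of the median percentile ranks turned without replicate 2, to 48.9 for the stand-alone and 45.6 for the shared genes chosen that way. A stand-alone count of 31 or 29 followed from treating coding starts within 500 or 1000 bp as shared. Of the motif shares, 19 values moved past the interval of the main share when the sequence window was changed, as a wider window holds more matches by construction. The group differences depended on it too: 0 of 21 intervals left out 0 at 100 bp, and 6 of 42 did so at 50 or 150 bp, in the E-box, GAGA element, TATA box and DNA replication-related element. The cause was not tested.

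No paired analysis was possible because the series has 1 group. The lists give no read depth, so a gene without a region may only rank below the end of a list. Shares over 34 or 26 genes carry wide intervals, and even a difference of 22.2 percentage points between them had an interval that included 0.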
